A study of Mus musculus with 8 samples.

Results

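The 9 genes Max, Mxd1, Mxd3, Mxd4, Mxi1, Mnt, Mga, Mlx and Mlxip encode the dimerisation network that surrounds the MYC proteins, and they were picked by name from a table of 32285 genes. All 9 were in the table. The choice was by family and not by values, but it was made with earlier results of these data known. The series concerns nuclei from marrow cells sorted as LSK (free of lineage markers and positive for Sca1 and ckit), the fraction of mouse marrow with stem cells and early progenitors, from T58A mice, which carry a point mutation of MYC, and from WT littermates. RNA and DNA accessibility were read from the same nuclei with the 10x multiome system. The labels name 4 RNA samples, 2 from T58A and 2 from WT mice, each pooled from 2 mice, and give no strain, age or treatment. The 4 accessibility samples were not analysed here.

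The RNA table held 8708 nuclei with unique molecular identifier (UMI) counts. Barcodes end in 1 of 4 suffixes, which define 4 barcode sets of 2999, 721, 2756 and 2232 nuclei. No label or header ties a suffix to T58A or WT, and the deposited table is named for T58A alone, so no genotype comparison was made. The whole table was read as 1 sample, no p-value was made from nuclei, and the sets are not replicates of a group. Only 36 barcode sequences occurred in more than 1 set. Levels are CPM, UMI counts scaled to 1000000 UMIs of a group after mitochondrial transcripts were left out, because mitochondrial transcripts took between 9.22% and 24.6% of the UMIs of a set. Intervals in parentheses are at 95% and cover counting error only.

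MAX is the partner that every MYC protein needs to bind DNA, at the E-box sequence CACGTG. MXD1, MXI1, MXD3 and MXD4 are small proteins that take the place of MYC on MAX and bring the SIN3-HDAC corepressor to the same sites, and MNT does so as a larger, broadly expressed protein. MGA carries both an E-box binding domain and a T-box domain and is the scaffold of a Polycomb repressor complex, PRC1.6. MLX is a MAX-like protein that pairs with some MXD proteins, with MNT and with the glucose-sensing factor MLXIP (MondoA), whose known target is the arrestin gene Txnip. In blood cell development, MXD proteins are known for replacing MYC on MAX as cells leave the cell cycle and mature.

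Of the 9 genes, 3 had a CACGTG E-box in the 250 bases before a RefSeq start site (build GRCm38.p6, the patch release of mm10), namely Mxd4, Mnt and Mlx. The motif, which reads the same on both strands, stood 219 bases before the start of Mxd4, 123 before that of Mnt and 40 before that of Mlx. It occurred in 6.02% of all 32851 promoters in the RefSeq table. The GATA motif AGATAA was in none of the 11 member promoters and in 9.99% of all promoters, counting both strands. The E2F motifs TTTCCCGC and TTTGGCGC were likewise in none of them, against 0.895% and 0.417% of all promoters. No match says only that these letters are not in this window. The promoters of Mxd4, Mxd1 and Mxi1, the MXD genes with enough counts to be measured between classes, are shown with the E-box in capitals, from chr5:34187711-34187960 (minus strand) for Mxd4, chr6:86669160-86669409 (minus strand) for Mxd1 and chr19:53310256-53310505 (plus strand) for the first of 3 starts of Mxi1.
Mxd4: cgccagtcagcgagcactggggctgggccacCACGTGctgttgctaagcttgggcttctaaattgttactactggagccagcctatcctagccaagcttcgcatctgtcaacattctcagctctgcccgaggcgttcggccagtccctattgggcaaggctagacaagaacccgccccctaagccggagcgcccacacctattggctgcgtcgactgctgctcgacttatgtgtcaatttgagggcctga
Mxd1: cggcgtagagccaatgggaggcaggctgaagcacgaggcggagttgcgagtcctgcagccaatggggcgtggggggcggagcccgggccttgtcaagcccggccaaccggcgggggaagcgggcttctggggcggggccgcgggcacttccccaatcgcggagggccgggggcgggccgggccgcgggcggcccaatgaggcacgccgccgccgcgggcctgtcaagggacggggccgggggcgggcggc
Mxi1: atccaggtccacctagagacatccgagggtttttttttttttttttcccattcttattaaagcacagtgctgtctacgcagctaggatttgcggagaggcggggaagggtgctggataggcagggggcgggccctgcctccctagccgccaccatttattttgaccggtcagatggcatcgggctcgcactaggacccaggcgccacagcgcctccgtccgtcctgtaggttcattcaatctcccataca
The Mxd1 stretch held 32 CpG dinucleotides and the Mxd4 and Mxi1 stretches 13 each, against a median of 6 over all promoters.

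Nuclei were placed in classes by lists of lineage markers that hold none of the 9 genes. A class took a nucleus whose marker UMIs were at least 2-fold above the table mean from at least 2 different markers, with a log2 lead of at least 0.5 over every other list. Named classes took 4355 nuclei, 13 classes in all. They were 820 lymphoid progenitor-like nuclei (Dntt, Il7r), 600 myeloid progenitor-like (Mpo, Elane), 198 monocyte progenitor-like (Csf1r, Irf8), 463 megakaryocyte-side (Vwf, Itga2b) and 485 erythroid-side nuclei (Car1, Klf1). Smaller classes of more mature kinds were 124 late erythroid-like (Slc4a1, globins), 152 neutrophil-like (Camp, Ltf), 237 B lineage-like, 204 plasma-like, 62 T and NK-like, 151 dendritic and macrophage-like and 75 mast and basophil-like nuclei. The class they were set against was 784 HSC-like nuclei (Hlf, Mecom), named for hematopoietic stem cells. In each of the 13 classes at least 7 of its own markers, which also set the gate, were raised, and 4331 nuclei, 49.7% of the table, met no gate. By nuclei near the gate and by leading genes the HSC-like class was the least sharp, with 315 of its nuclei near the gate and 2 of its own markers among its 10 leading genes. Summed HSC markers exceeded the class's own list in megakaryocyte-side (4511 against 2600 CPM) and mast and basophil-like nuclei (2644 against 2155 CPM). In T and NK-like nuclei lymphoid progenitor markers summed to 2924 CPM, against 2877 CPM for the class's own list. Of the 14 markers of that list, 12 were raised there, and Cd3g and Cd3d had 0 UMIs. Late erythroid-like and neutrophil-like nuclei were shallow, with median depths of 1478 and 1563 UMIs against 2956 in HSC-like nuclei, and with plasma-like nuclei they came almost wholly from sets 1 and 3.

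Mga gave the most UMIs of the 9 genes, 12001, followed by Mlxip with 4457, Max with 2924, Mxi1 with 2583, Mxd4 with 1671, Mnt with 1245, Mxd1 with 1090, Mlx with 201 and Mxd3 with 78. Counts in nuclei grow with gene length, so levels between genes were set side by side per kilobase of gene span. On that scale Mxd4 stood at 3.97 CPM per kb, Mga at 3.25, Max at 3.09, Mnt at 2.21, Mlxip at 1.86, Mxd1 at 1.3, Mxi1 at 1.08, Mlx at 0.967 and Mxd3 at 0.436. Mxd4, a compact gene of 11.1 kb at chr5:34176580-34187710, thus had the highest level per length of these spans, while Mga, spread over 97.6 kb at chr2:119872503-119970129, had the highest UMI count. The RefSeq promoter window of Mga ends at chr2:119897227, well inside that span. A span from there would be shorter and its level per kilobase higher, so the order of Mxd4 and Mga depends on the span taken. Over whole barcode sets Mga lay between 291 and 348 CPM, Mlxip between 106 and 125 CPM, Max between 73 and 84.8 CPM, Mxi1 between 62.8 and 75.5 CPM, Mxd4 between 43.2 and 45.4 CPM, Mnt between 27.1 and 42 CPM and Mxd1 between 24 and 31.5 CPM.

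Each class was compared with HSC-like nuclei, so the 12 comparisons share that side and are not independent. A gene was measured with at least 50 counts over both groups and called when the ratio of CPM plus 10 reached 1.5-fold with 1 direction in every barcode set that held at least 10 nuclei of both groups. This is a description of 1 sample and not a test. In every one of the 12 comparisons 7 of the 9 genes were measured, Mxd3 and Mlx being too sparse.

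**Figure D1:**
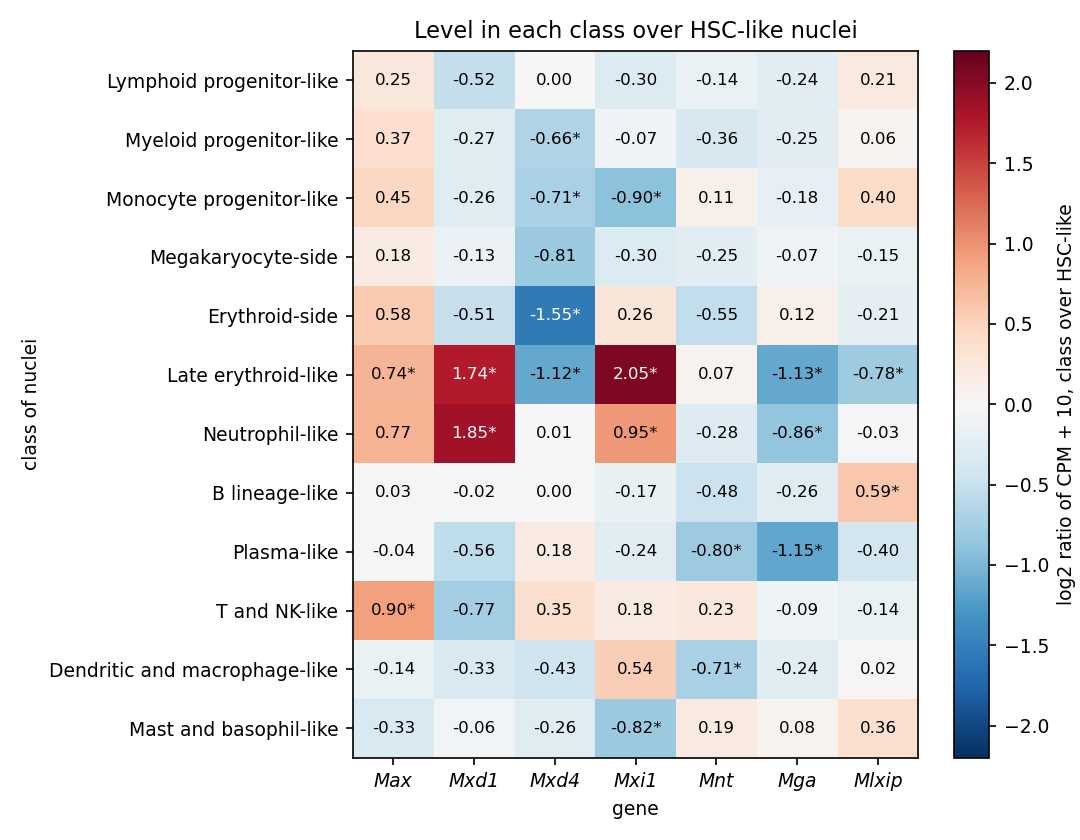
Log2 ratio of CPM plus 10 in each of 12 classes (rows) over HSC-like nuclei for the 7 measured genes (columns), with a star on each called pair. The deepest red cells are Mxi1 (2.05) in late erythroid-like nuclei and Mxd1 in neutrophil-like (1.85) and late erythroid-like (1.74) nuclei, and the deepest blue cell is Mxd4 in erythroid-side nuclei (-1.55).

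Max, the common partner, was among the flattest of the 9 genes. Its level ran between 47.6 CPM in mast and basophil-like nuclei and 125 CPM in T and NK-like nuclei, a 2.63-fold span. The counting intervals of all 12 neighbouring pairs in the order overlapped, but so did those of Mxd4, which spanned 5.86-fold. Overlap of neighbours does not speak to classes further apart. In erythroid-side nuclei Max had 98 CPM (87.6 to 109), from 85.5, 123, 98.1 and 108 CPM in sets 1 to 4. HSC-like nuclei stood near the low end, with 62.3 CPM (53.5 to 72.2), from 71.9, 58.7, 84.1 and 50.9 CPM. The erythroid-side level was 1.57 times the HSC-like level (1.3 to 1.9), higher in 4 of 4 sets, although the log2 ratio of 0.58 on the CPM plus 10 scale was just short of the 1.5-fold line. Max was called higher in T and NK-like nuclei, with 125 CPM against 62.3 CPM in HSC-like nuclei (ratio 2.01, 1.33 to 2.94), where 6.02% of all 7736 measured genes were called higher and 13.2% lower. The T and NK-like value rests on 32 UMIs, with 79, 175 and 155 CPM in sets 1, 3 and 4 against 71.9, 84.1 and 50.9 CPM in HSC-like nuclei of these sets, so that set 1 was nearly level, and the call was kept in 10 of 15 alternatives and lost without set 4 (log2 ratio 0.58). Neutrophil-like nuclei had 153 CPM in set 1 and 77.5 CPM in set 3, against 71.9 and 84.1 CPM in HSC-like nuclei, and were not called.

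Among the MXD repressors, Mxd1 and Mxi1 had the same 2 classes at the top. Mxd1 stood at 147 CPM (107 to 197) in neutrophil-like nuclei and 135 CPM (93.1 to 189.96) in late erythroid-like nuclei, and every other class lay between 15.7 and 33.6 CPM. Mxi1 stood at 328 CPM (260.02 to 408) in late erythroid-like and 147 CPM (107 to 197) in neutrophil-like nuclei, with dendritic and macrophage-like nuclei next at 108 CPM (83.7 to 138). For both genes, neither the interval nor the set range of late erythroid-like nuclei overlapped that of the class next below. Over the 13 classes the log2 levels of Mxd1 and Mxi1 had a Pearson r of 0.72, a description over points that share 1 library and rest mainly on these 2 classes.

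**Figure D2:**
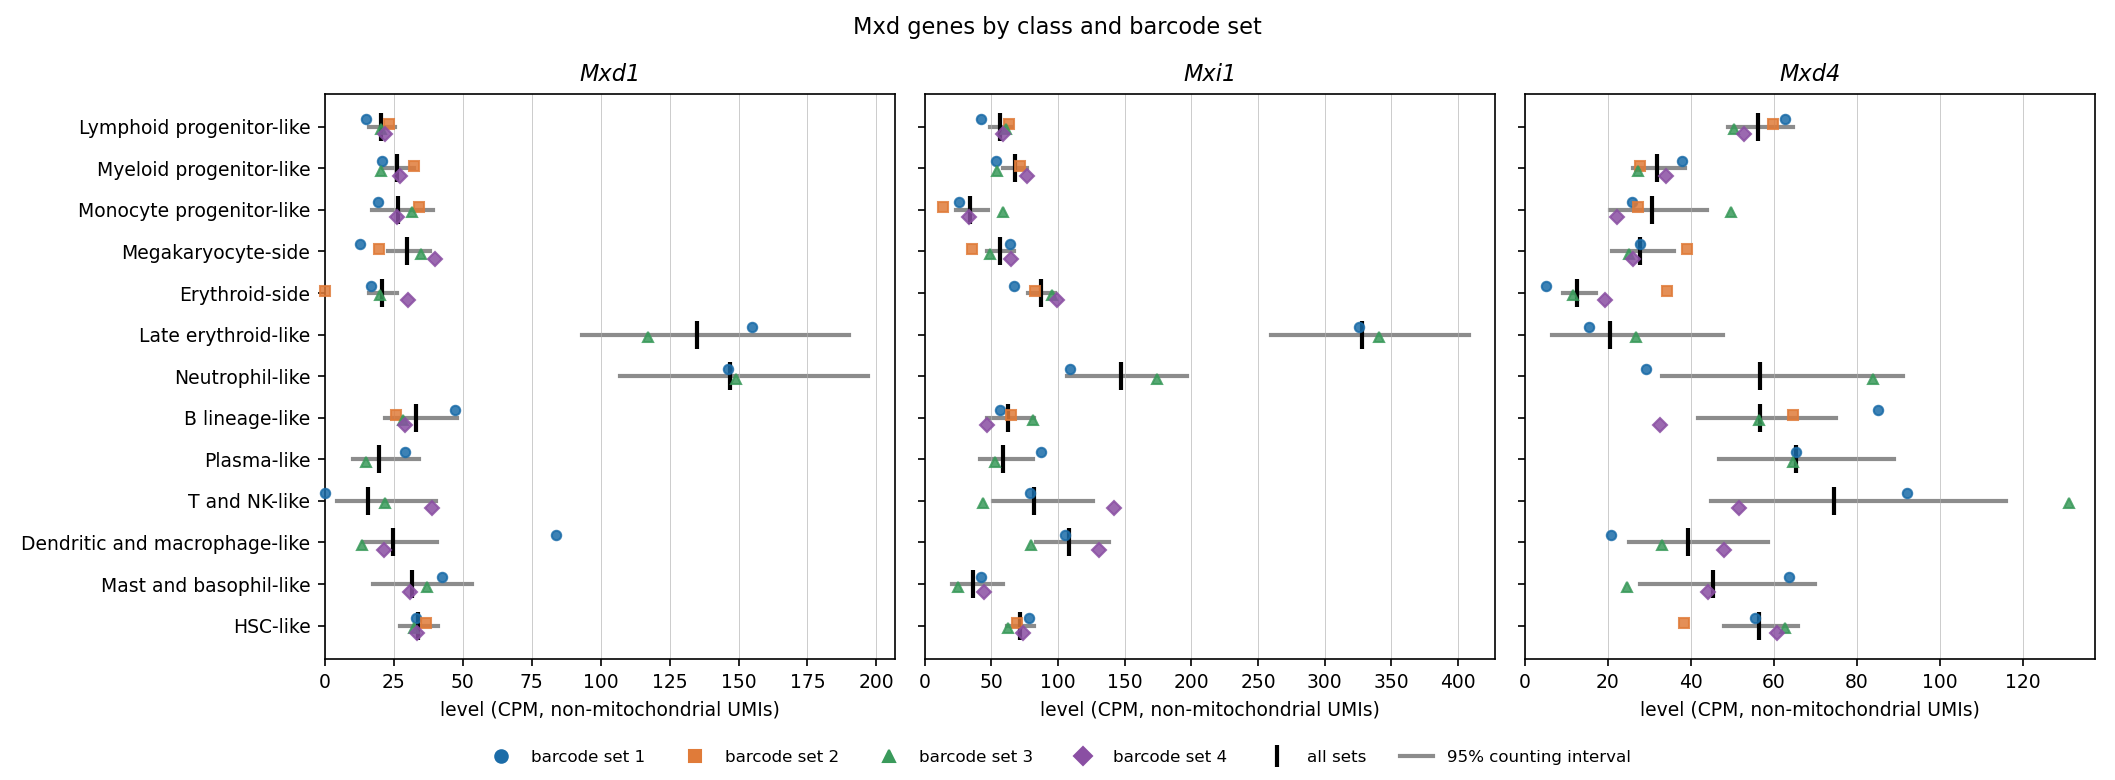
Level in CPM (horizontal axes) of Mxd1, Mxi1 and Mxd4 in 13 classes, with barcode sets as coloured points, the pooled level as a black bar and its 95% counting interval in grey. Mxd1 and Mxi1 stand apart in late erythroid-like and neutrophil-like nuclei, and Mxd4 is lowest in erythroid-side nuclei (12.7 CPM).

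In late erythroid-like nuclei Mxd1 had 155 and 117 CPM in sets 1 and 3, against 32.9 and 32.2 CPM in HSC-like nuclei of the same sets. Mxi1 had 326 and 341 CPM there, against 78.1 and 62.7 CPM. Both sets of the late class lay above all 4 sets of HSC-like nuclei for both genes. The ratios to pooled HSC-like nuclei were 4.02 (2.62 to 6.03) for Mxd1 and 4.59 (3.5 to 5.97) for Mxi1, and with sets 1 and 3 alone on both sides they were 4.22 (2.53 to 7.02) and 4.76 (3.42 to 6.63). The 33 Mxd1 UMIs came from 25 nuclei with at most 3 in 1 nucleus, and the 80 Mxi1 UMIs from 53 nuclei with at most 5.

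Late erythroid-like nuclei called 6 of the 7 measured members, Max, Mxd1 and Mxi1 higher and Mxd4, Mga and Mlxip lower. This class differed from HSC-like nuclei across the table, with 13.6% of 7732 measured genes called higher and 36.2% lower, on the 2 sets that held enough nuclei. The median log2 ratio was 0.07 over the 7 members and -0.36 over all measured genes. Max had 111 CPM against 62.3 CPM in HSC-like nuclei (ratio 1.78, 1.14 to 2.67), but within sets 1 and 3 the ratio was 1.43 (0.89 to 2.23) and not called, where 17.8% of 4821 genes were called higher and 34.0% lower. Mlxip had 61.5 CPM against 113 CPM in HSC-like nuclei (ratio 0.545, 0.302 to 0.913), on 15 UMIs, and within sets 1 and 3 the ratio of 0.603 was called with an interval (0.318 to 1.06) that includes 1.

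Set against erythroid-side nuclei, the earlier erythroid class, Mxd1 and Mxi1 were again higher in the late class. Mxd1 had 135 CPM in late erythroid-like against 20.6 CPM in erythroid-side nuclei (ratio 6.56, 4.19 to 10.1), and Mxi1 had 328 against 87.3 CPM (ratio 3.75, 2.89 to 4.83). Mnt was also called higher, with 41 against 23 CPM, on 10 UMIs in the late class and with an interval (0.82 to 3.45) that includes 1. Mga was called lower, with 148 against 366 CPM (ratio 0.403, 0.281 to 0.561). Mxd4 was too sparse to be measured here, with 20.5 CPM on 5 UMIs against 12.7 CPM in erythroid-side nuclei (ratio 1.61, 0.497 to 4.06), although it was called lower against HSC-like nuclei. In this comparison 14.7% of 7465 measured genes were called higher and 32.9% lower. Summed mitosis genes stood at 13449 CPM in late erythroid-like, 6744 CPM in erythroid-side and 2076 CPM in HSC-like nuclei, and their part in these differences was not tested.

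Neutrophil-like nuclei called Mxd1 and Mxi1 higher and Mga lower, 3 of 7 measured members, where 7.28% of 7758 measured genes were called higher and 24.1% lower. Mxd1 had 146 and 149 CPM in sets 1 and 3, against 32.9 and 32.2 CPM in HSC-like nuclei, and Mxi1 had 109 and 174 CPM, against 78.1 and 62.7 CPM. The ratios to pooled HSC-like nuclei were 4.37 (2.99 to 6.31) for Mxd1 and 2.06 (1.45 to 2.86) for Mxi1. Against myeloid progenitor-like nuclei, Mxd1 had 147 CPM in neutrophil-like against 26.2 CPM in myeloid progenitor-like nuclei (ratio 5.61, 3.81 to 8.14) and Mxi1 had 147 against 67.4 CPM (ratio 2.18, 1.54 to 3.03), with 8.69% of 7829 genes called higher and 18.9% lower. Late erythroid markers summed to 144 CPM in neutrophil-like and 10747 CPM in late erythroid-like nuclei, and neutrophil markers summed to 139 CPM in late erythroid-like and 14787 CPM in neutrophil-like nuclei. The gate was set on these same marker lists, so the low sums were in part fixed by it and do not test mixing of the 2 classes.

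Mxd1 was called in no progenitor class over HSC-like nuclei. It had 20.3 CPM in lymphoid progenitor-like nuclei, against 33.6 CPM in HSC-like nuclei (ratio 0.605, 0.441 to 0.828), and was lower in 4 of 4 sets without reaching the 1.5-fold line on the CPM plus 10 scale. Erythroid-side nuclei had 20.6 CPM (ratio to HSC-like 0.613, 0.443 to 0.845), also lower in 4 of 4 sets, with 0 CPM in set 2 from 11 nuclei. The intervals included 1 in myeloid progenitor-like (ratio 0.78, 0.578 to 1.05), monocyte progenitor-like (0.785, 0.484 to 1.23) and megakaryocyte-side nuclei (0.884, 0.632 to 1.23). Mxi1, by contrast, was called lower in monocyte progenitor-like nuclei, with 25.8, 13.7, 58.6 and 33.5 CPM in sets 1 to 4, against 78.1, 68.9, 62.7 and 73.7 CPM in HSC-like nuclei. The pooled values were 33.8 and 71.5 CPM (ratio 0.473, 0.315 to 0.689), while set 3 was nearly level, and 2 of 7 measured members were called in this class, where 8.18% of 8289 genes were called higher and 15.6% lower. When classes came from clustering instead of gates, a cluster of 66 nuclei took the monocyte name and its log2 ratio for Mxi1 was 0.99, the opposite direction. In mast and basophil-like nuclei Mxi1 had 36.3 CPM, against 71.5 CPM in HSC-like nuclei (ratio 0.507, 0.285 to 0.844), on 16 UMIs, the 1 call of 7 measured members, where 5.25% of 7861 genes were called higher and 11.4% lower.

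Mxd4 behaved differently from Mxd1 and Mxi1 and was the member with the widest spread among progenitors. It was highest in T and NK-like nuclei, with 74.4 CPM (44.8 to 116), and lowest in erythroid-side nuclei, with 12.7 CPM (9.18 to 17.2), and stood at 56.3 CPM (48.9 to 64.6) in lymphoid progenitor-like and 56.4 CPM (48 to 65.8) in HSC-like nuclei. Sets 1 to 4 of the erythroid-side class had 5.22, 34.3, 11.7 and 19.4 CPM, against 55.5, 38.5, 62.7 and 60.8 CPM in HSC-like nuclei. Set 2, with 11 erythroid-side nuclei, was nearly level and the other sets lay far below. Mxd4 was the 1 called member of 7 in this comparison, where 17.4% of 9398 measured genes were called higher and 21.7% lower, with a ratio of 0.226 (0.157 to 0.319).

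In myeloid progenitor-like nuclei Mxd4 had 37.9, 27.9, 27.2 and 34.1 CPM in sets 1 to 4, against 55.5, 38.5, 62.7 and 60.8 CPM in HSC-like nuclei, lower in each set. The pooled ratio was 0.566 (0.439 to 0.727), the 1 call among 7 measured members, where 10.6% of 9498 genes were called higher and 16.5% lower. Monocyte progenitor-like nuclei had 30.6 CPM (ratio 0.543, 0.352 to 0.81), the other call of that class beside Mxi1. Megakaryocyte-side nuclei had 27.8 CPM (ratio 0.493, 0.359 to 0.67), but set 2 was nearly level at 39.1 CPM against 38.5 CPM in HSC-like nuclei, so 0 of 7 members were called, where 5.39% of 8987 genes were called higher and 8.50% lower. Lymphoid progenitor-like nuclei also called 0 of 7 members, where 5.66% of 9634 genes were called higher and 8.13% lower, and Mxd4 was level with HSC-like nuclei (ratio 0.999, 0.809 to 1.24).

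The progenitor classes differed in their share of dividing nuclei, so the members were read in cycling and non-cycling nuclei. Each nucleus was thinned to 2000 UMIs for this gate only, which left out 2143 shallower nuclei. Nuclei with at least 5 of 28 mitosis genes were cycling (3014) and those with at most 1 were non-cycling (1921), with median depths of 5320 and 3504 UMIs. Cycling nuclei made up 86.3% of erythroid-side, 69.1% of myeloid progenitor-like, 65.8% of monocyte progenitor-like, 50.5% of megakaryocyte-side, 34.9% of lymphoid progenitor-like, 65.8% of B lineage-like and 13.3% of HSC-like nuclei deep enough to be read. B lineage-like nuclei, with the same share as monocyte progenitor-like nuclei, had 56.6 CPM of Mxd4, against 56.4 CPM in HSC-like nuclei (ratio 1, 0.711 to 1.39).

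Mxd4 was the 1 member of 9 called between these states, where 4.70% of 12415 measured genes were called higher and 5.53% lower. It had 27, 35.1, 27.4 and 34.9 CPM in cycling nuclei of sets 1 to 4, against 75.4, 52, 59.1 and 66.2 CPM in non-cycling nuclei, and the ranges did not overlap. Pooled, that is 31.2 CPM (28.7 to 33.8) against 63.1 CPM (57.8 to 68.8), a ratio of 0.494 (0.438 to 0.557). Within classes the difference varied. HSC-like nuclei had 31.7 CPM when cycling against 62.6 CPM when not (ratio 0.506, 0.282 to 0.86), lower in 4 of 4 sets and called, where 5.25% of 6132 genes were called higher and 5.64% lower. Ungated nuclei had 37.3 against 65 CPM (ratio 0.575, 0.485 to 0.681), called where 3.91% of 10778 genes were called higher and 3.31% lower, and lymphoid progenitor-like nuclei had 43.5 against 67.3 CPM (ratio 0.645, 0.456 to 0.909), lower in 3 of 4 sets and not called. Megakaryocyte-side nuclei were too sparse to be measured, with 23.9 against 29 CPM (ratio 0.824, 0.386 to 1.91), higher in 2 of 3 sets.

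**Figure D3:**
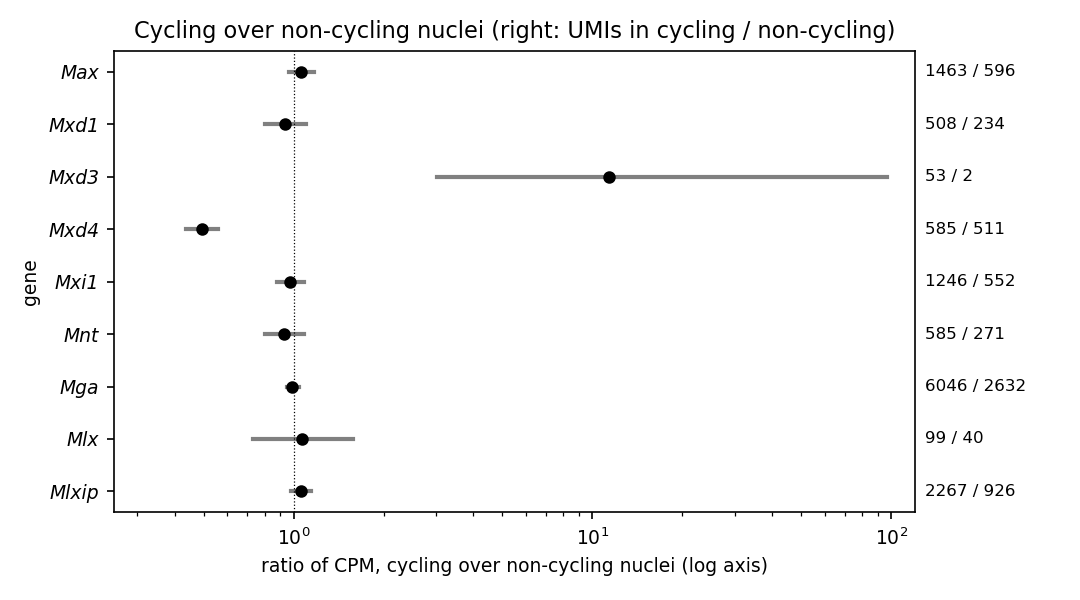
Ratio of CPM in cycling over non-cycling nuclei (horizontal log axis) for each of the 9 genes, with 95% counting intervals as bars and the UMIs of both groups at the right. Mxd4 lies at 0.494 and Mxd3 at 11.4, and the intervals of the other 7 genes include 1.

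Classes were then compared with HSC-like nuclei among cycling nuclei of both, with 77 cycling HSC-like nuclei. Mxd4 in erythroid-side nuclei remained low, with 11.2 CPM against 31.7 CPM in HSC-like nuclei (ratio 0.354, 0.191 to 0.68), lower in 3 of 3 sets. Myeloid progenitor-like nuclei had 28.9 against 31.7 CPM (ratio 0.913, 0.531 to 1.66), monocyte progenitor-like 31.3 against 31.7 CPM (ratio 0.989, 0.487 to 2.03) and megakaryocyte-side 23.9 against 31.7 CPM (ratio 0.754, 0.396 to 1.48). These 3 intervals include 1, and with 17 UMIs in cycling HSC-like nuclei they also include differences of the size seen over all nuclei. Lymphoid progenitor-like nuclei had 43.5 against 31.7 CPM (ratio 1.37, 0.792 to 2.5).

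Mxd3, the MXD member known in mouse for expression in S phase, was the sparsest gene, yet its UMIs lay on the cycling side. Cycling nuclei held 53 UMIs and non-cycling nuclei 2, or 2.83 and 0.247 CPM, a ratio of 11.4 (3.01 to 96.9) that was higher in 4 of 4 sets. With 10 added to each level the log2 ratio was 0.32, and the gene was not called. By class, late erythroid-like nuclei held 10 Mxd3 UMIs, from 10 nuclei, or 41 CPM (19.7 to 75.4). HSC-like and erythroid-side nuclei held 0, which allows up to 1.05 and 0.91 CPM at 3 counts. With the floor of 3 counts taken over each group, the late erythroid-like level was at least 39-fold higher than in HSC-like nuclei, or at least 14.5-fold higher with sets 1 and 3 alone on both sides, and at least 45.1-fold higher than in erythroid-side nuclei. These folds take the 10 UMIs at their point value. The counting intervals of the ratios reach down to 26.2 over HSC-like nuclei, 9.74 with sets 1 and 3 alone and 30.3 over erythroid-side nuclei. Next in order were neutrophil-like nuclei with 6.69 CPM on 2 UMIs and B lineage-like nuclei with 5.89 CPM on 5 UMIs, and their intervals reach 24.2 and 13.8 CPM.

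The other 7 genes did not separate by cycling state at this depth. Their ratios of cycling over non-cycling nuclei lay between 0.931 for Mnt and 1.07 for Mlx, and all of their intervals included 1. For Mga, the best counted, the ratio was 0.991 (0.947 to 1.04), with 322 CPM in cycling and 325 CPM in non-cycling nuclei. Within megakaryocyte-side nuclei Max was called lower, with 59.3 CPM in cycling against 95.8 CPM in non-cycling nuclei (ratio 0.619, 0.402 to 0.97), 1 of 5 measured members, where 7.48% of 5217 genes were called higher and 3.45% lower. Within lymphoid progenitor-like nuclei 0 of 7 members were called, where 5.27% of 7017 genes were called higher and 3.96% lower.

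Mnt, the broadly expressed repressor, spanned 2.61-fold over classes, between 18 CPM in plasma-like and 47 CPM in T and NK-like nuclei, with 38.5 CPM (31.7 to 46.4) in HSC-like nuclei. All 12 neighbouring pairs in its order had overlapping intervals, which again does not speak to classes further apart. It was called lower in dendritic and macrophage-like nuclei, with 20.9, 26.5 and 18.6 CPM in sets 1, 3 and 4, against 45.2, 43 and 40.3 CPM in HSC-like nuclei of these sets, while set 2 of HSC-like nuclei, at 22.3 CPM, lay within the dendritic and macrophage-like range. The ratio was 0.511 (0.256 to 0.928) on 12 UMIs, the 1 call of 7 members, where 10.1% of 8098 genes were called higher and 18.6% lower, and the call was kept in 10 of 16 alternatives and lost without set 4 (log2 ratio -0.58). In plasma-like nuclei it had 18 CPM, against 38.5 CPM in HSC-like nuclei (ratio 0.466, 0.226 to 0.867), on 11 UMIs. Erythroid-side nuclei had 23 CPM (ratio to HSC-like 0.598, 0.441 to 0.809), lower in 4 of 4 sets and short of the 1.5-fold line.

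**Figure D4:**
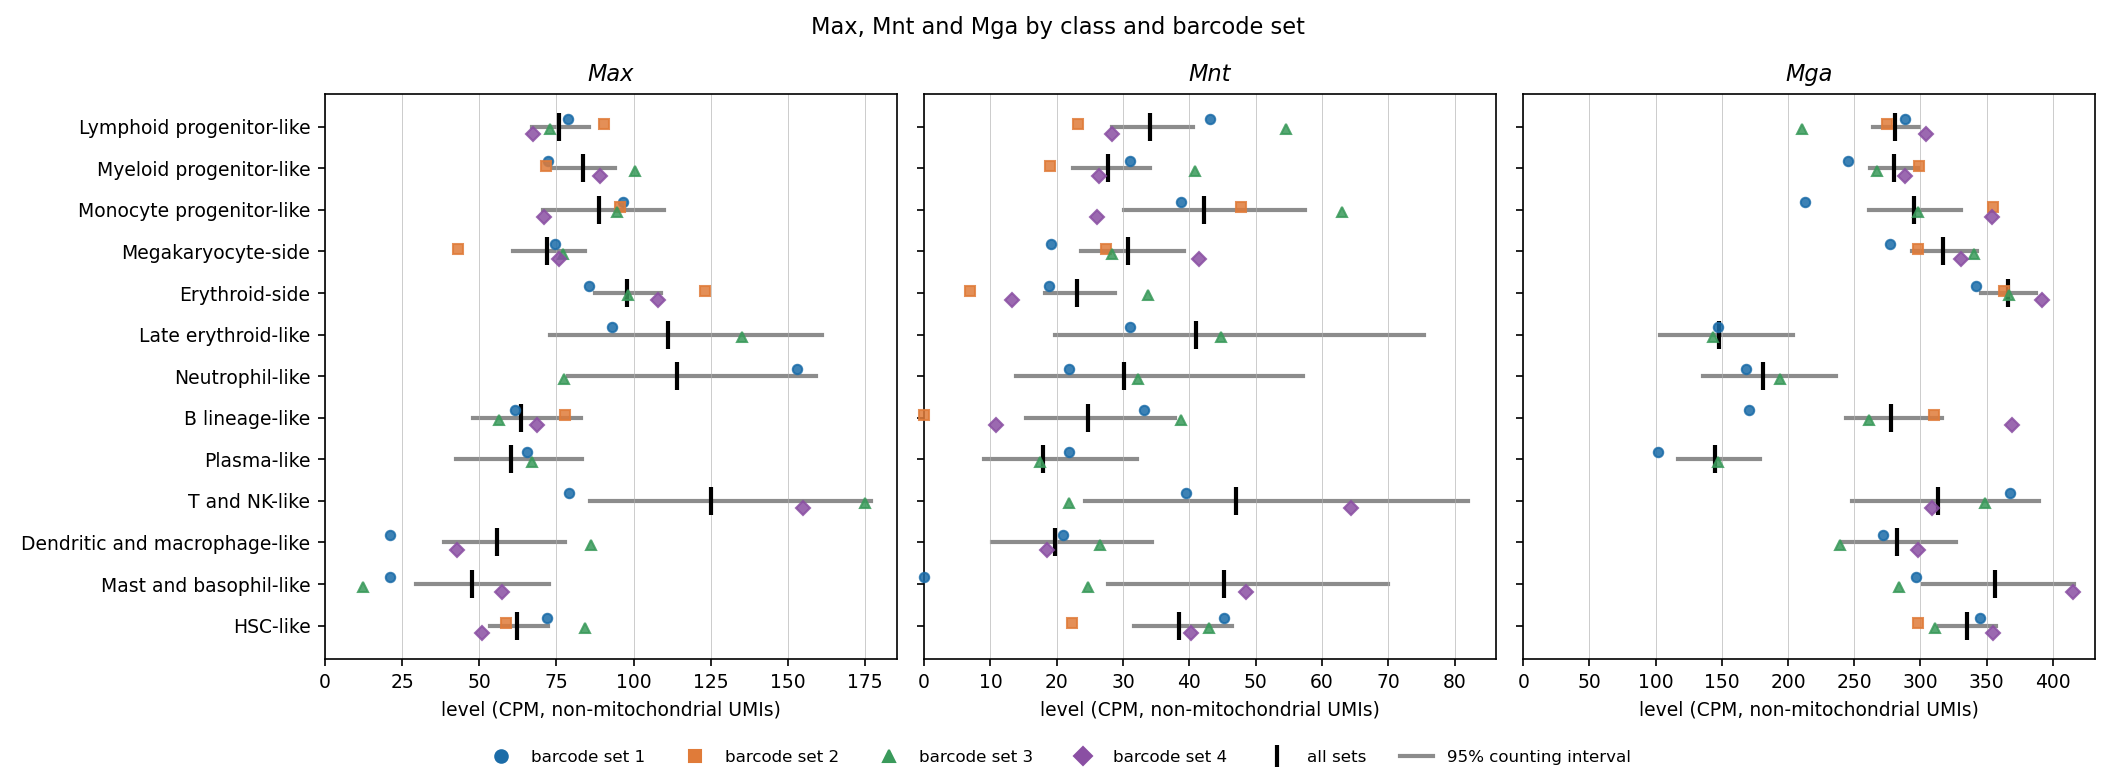
Level in CPM (horizontal axes) of Max, Mnt and Mga in 13 classes, with barcode sets as coloured points, the pooled level as a black bar and its 95% counting interval in grey. Mga is between 278 and 366 CPM in 10 classes and between 145 and 181 CPM in plasma-like, late erythroid-like and neutrophil-like nuclei.

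Mga, the PRC1.6 scaffold, was lowest in 3 mature classes. It was at 181 CPM (136 to 236) in neutrophil-like, 148 CPM (103 to 204) in late erythroid-like and 145 CPM (117 to 179) in plasma-like nuclei. In the other 10 classes it lay between 278 and 366 CPM, with HSC-like nuclei at 335 CPM (314 to 357). Sets 1 and 3 had 168 and 194 CPM in neutrophil-like, 147 and 143 CPM in late erythroid-like and 102 and 147 CPM in plasma-like nuclei, against 345 and 311 CPM in HSC-like nuclei. No set of these 3 classes reached the lowest HSC-like set, 298 CPM, but set 1 of B lineage-like nuclei, at 170.2 CPM, lay within their range. The ratios to HSC-like nuclei were 0.539 (0.402 to 0.709), 0.441 (0.307 to 0.614) and 0.434 (0.345 to 0.54). Plasma-like nuclei called Mnt and Mga lower, 2 of 7 measured members, where 5.65% of 7951 genes were called higher and 45.7% lower. The median log2 ratio there was -0.56 over all measured genes and -0.40 over the 7 members, so a low value in this class was common to much of the table.

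Genes of the PRC1.6 complex were read from a list of 14. In erythroid-side nuclei 5 of 14 were called higher and 0 lower than in HSC-like nuclei, where 17.4% of all measured genes were called higher and 21.7% lower, and the median log2 ratio was 0.44 over the list and 0.03 over all measured genes. L3mbtl2, a chromatin reader of the complex, had 45.2 CPM in erythroid-side against 11.6 CPM in HSC-like nuclei (ratio 3.91, 2.67 to 5.89), and Tfdp1, the dimerisation partner of E2F6, had 193 against 82.3 CPM (ratio 2.35, 2.02 to 2.74). E2f6 had 37.9 against 16.8 CPM (ratio 2.25, 1.6 to 3.21), Pcgf6 had 55.5 against 30.1 CPM (ratio 1.84, 1.42 to 2.41), and Wdr5 had 72.5 against 44.8 CPM (ratio 1.62, 1.3 to 2.02). Mga itself was nearly level there, with 366 against 335 CPM (ratio 1.09, 1 to 1.19). L3mbtl2 and Tfdp1 were called higher in myeloid progenitor-like and megakaryocyte-side nuclei too, where 10.6% and 5.39% of measured genes were. Tfdp1 was called higher in monocyte progenitor-like nuclei (8.18% of genes) and in cycling over non-cycling nuclei (4.70%). Calls lower there were Tfdp2 in both progenitor-like classes and Yaf2 in the monocyte one. Of nuclei deep enough to be read, 86.3% of erythroid-side and 13.3% of HSC-like were cycling, and the part of cycling was not tested. In late erythroid-like nuclei 3 of 12 measured genes of the list were called higher (Tfdp1, Tfdp2 and Cbx3) and 1 lower (Rnf2), with a list median of -0.35 against -0.36 over all measured genes. In plasma-like nuclei 8 of 12 measured PRC1.6 genes and 6 of 11 measured SIN3 and HDAC genes were called lower, in the class where 45.7% of all genes were. The SIN3 and HDAC list, the corepressor that MXD proteins and MNT recruit, had 0 of 12 genes called in lymphoid progenitor-like and erythroid-side nuclei and 1 of 12, Sap30 higher, in myeloid progenitor-like nuclei.

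Mlx, the MAX-like partner, was sparse everywhere, from 0 UMIs in late erythroid-like nuclei, which allows up to 12.3 CPM at 3 counts, to 10.03 CPM (2.07 to 29.3) in neutrophil-like nuclei. HSC-like nuclei had 5.6 CPM (3.2 to 9.1), and the counting intervals of all 12 neighbouring pairs overlapped. Such overlap does not speak to classes further apart in the order, and Mlx had too few counts to be called against HSC-like nuclei. Mlxip, the MondoA gene, was better counted and ran between 61.5 CPM in late erythroid-like and 174 CPM in B lineage-like nuclei. It was called higher in B lineage-like nuclei, with 166, 284, 166 and 159 CPM in sets 1 to 4, against 107, 103, 87.7 and 129 CPM in HSC-like nuclei, and the sets did not overlap. The ratio was 1.55 (1.26 to 1.88), the 1 call of 7 members, where 8.06% of 8268 genes were called higher and 14.5% lower. This call was kept in 9 of 16 alternatives and lost, among others, without set 2 (log2 ratio 0.47) and without set 3 (0.55). Set against lymphoid progenitor-like nuclei, B lineage-like nuclei had 174 CPM against 132 CPM (ratio 1.32, 1.09 to 1.6), higher in 4 of 4 sets, and 0 of 7 members were called, where 4.01% of 8552 genes were called higher and 6.65% lower.

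Txnip, the target of MLX and MLXIP that holds back glucose uptake, was called lower in all 5 progenitor classes. It had 36.7 CPM in erythroid-side nuclei, against 153 CPM in HSC-like nuclei (ratio 0.24, 0.194 to 0.294), 48.6 CPM in myeloid progenitor-like (ratio 0.318), 50.7 CPM in monocyte progenitor-like (ratio 0.331), 81.9 CPM in lymphoid progenitor-like (ratio 0.535) and 87.8 CPM in megakaryocyte-side nuclei (ratio 0.573). In late erythroid-like nuclei it was called higher, with 377 CPM against 153 CPM (ratio 2.46, 1.95 to 3.09). Mlxip over the same classes stayed between 96.4 and 152 CPM in the progenitors, against 113 CPM in HSC-like nuclei, and was low in the late class. Txnip was also called lower in T and NK-like and in dendritic and macrophage-like nuclei, where 13.2% and 18.6% of measured genes were. Between cycling and non-cycling nuclei it was called lower in the cycling ones, as were 5.53% of measured genes. Cycling nuclei made up 34.9% to 86.3% of the progenitor classes and 13.3% of HSC-like nuclei, and their part in the Txnip values was not tested.

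The MYC paralogs were read as the counterpart of the MXD genes. Myc had 64.9 CPM in erythroid-side nuclei, 49.2 CPM (25.4 to 85.9) in late erythroid-like, 56.8 CPM (33.1 to 91) in neutrophil-like and 53.9 CPM (45.8 to 63.2) in HSC-like nuclei, and over HSC-like nuclei it was called in plasma-like and in T and NK-like nuclei alone, lower in both. The T and NK-like call of Myc rests on 6 UMIs, with 39.5, 0 and 25.8 CPM in sets 1, 3 and 4. Mycn was called lower in 10 of the 12 classes, all set against the same HSC-like nuclei. Those HSC-like nuclei varied, with 39, 38.5, 10.7 and 16 CPM in sets 1 to 4. Several calls rest on few UMIs in the class, 0 in neutrophil-like and 1 each in late erythroid-like and monocyte progenitor-like nuclei. Mast and basophil-like nuclei held 2, and plasma-like and dendritic and macrophage-like nuclei 3 each. In set 3 late erythroid-like nuclei had 8.97 CPM, against 10.7 CPM in HSC-like nuclei. Mycn was not called in megakaryocyte-side nuclei (29.3 CPM), with 23.4 to 50.9 CPM over the sets. Nor was Mycn called in T and NK-like nuclei (31.3 CPM on 8 UMIs), with 52.6, 0 and 0 CPM in sets 1, 3 and 4. In erythroid-side nuclei it stood lowest among the classes with a UMI, with 0.91 CPM on 3 UMIs against 22.8 CPM in HSC-like nuclei (ratio 0.04, 0.00803 to 0.122). UMIs of the 4 MXD genes per UMI of the 3 MYC paralogs, a ratio that compares classes and not genes, came to 9.85 (5.56 to 19) in late erythroid-like nuclei, from 128 and 13 UMIs. It was 5.94 (3.59 to 10.4) in neutrophil-like, 4.63 (2.8 to 8.06) in plasma-like, 3.21 (1.73 to 6.34) in T and NK-like, 2.73 (1.96 to 3.88) in B lineage-like, 2.36 (1.65 to 3.42) in dendritic and macrophage-like, 1.83 (1.55 to 2.17) in erythroid-side, 1.81 (1.54 to 2.14) in myeloid progenitor-like and 2.11 (1.79 to 2.48) in HSC-like nuclei. The T and NK-like value rests on 14 MYC UMIs, with 1.86 and 9 in the 2 sets that gave a ratio. Lymphoid progenitor-like nuclei had 1.76 (1.52 to 2.04) and mast and basophil-like nuclei 1.46 (0.929 to 2.31). The ratio was lowest in megakaryocyte-side nuclei, 1.38 (1.13 to 1.69), and monocyte progenitor-like nuclei, 1.33 (0.957 to 1.85). In sets 1 and 3 the ratio ran between 8.14 and 11.8 in late erythroid-like, between 5.73 and 5.86 in neutrophil-like and between 3.53 and 25 in plasma-like nuclei, above the range of 1.58 to 2.57 over the 4 sets of HSC-like nuclei.

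Genes whose log2 level ran most like each member were taken over the 13 classes from 8189 genes with at least 500 counts, as a description over points that share 1 library. Mga was nearest to Dnm1l (r = 0.962), Fam172a (0.959) and Nfx1 (0.947). Mxd4 was nearest to Traf3ip3 (0.911), Sft2d2 (0.904) and Dennd3 (0.901), and Mxi1 to Anapc2 (0.907), Arf5 (0.901) and Cd82 (0.899), all 3 highest in late erythroid-like nuclei. Mxd1 was nearest to Adipor1 (0.900), Eif5 (0.888) and Usp19 (0.883). Mnt was nearest to Anapc4 (0.923), Max to Msl1 (0.899) and Mlxip to Rnf169 (0.889).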

How the data were processed

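The authors deposited UMI counts per gene and nucleus, not normalized. Per the submitters' processing notes, the build was mm10 and the tools were Cell Ranger ARC, Signac and Seurat. Their versions, the annotation and filters on nuclei are not given in the sources used here. Columns of per-sample values left unused numbered 0. The edgeR test planned for T58A over WT was not run, since no column could be tied to a sample.

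Sums of counts per class were scaled to CPM (Python 3.11.15, numpy 2.4.6, scipy 1.17.1). Intervals are exact Poisson for levels and exact binomial for ratios, at 95%. Likely doublets were kept, and the highest 5% of each set by simulated-doublet score were left out in an alternative. The named genes are all 9 members, the 3 most alike genes per member with at least 500 counts, and genes of the pathway lists. Where more of a list is named, it was chosen after its values were seen. Gene positions and promoters are from RefSeq, GRCm38.p6, where all 9 symbols matched. The ratio and call rule was tested on simulated sums for the lymphoid progenitor-like, erythroid-side and late erythroid-like comparisons with HSC-like nuclei. The gates, thinning, clusters and other steps were not tested in this way.

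The members and lists were chosen with earlier results of these data known. Chosen after the data were seen were the gate thresholds, by class size, the cycling thresholds, by the histogram of mitosis genes, the condition of 10 nuclei per set (the plan asked for every set), the comparisons with erythroid-side, myeloid and lymphoid progenitor-like nuclei, the ratio of MXD to MYC UMIs, sets 1 and 3 alone, and the comparison within cycling nuclei. The alternatives tried were another denominator, stricter, looser and thinned gates, clusters, each set left out, medians of sets, other count filters, another added value and a 2-fold line.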

Additional observations from a re-analysis of the deposited data

How the results depend on the processing

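No paired analysis was possible because no barcode set could be tied to a replicate. Of 19 calls over HSC-like nuclei, 17 were kept with all UMIs as the denominator, 10 with a stricter gate, 14 with a looser gate, 10 of 18 with gates on thinned nuclei, 15 with clusters, 17 without likely doublets, 13 with at least 200 counts and 7 with a 2-fold line. Mxi1 and Mga in late erythroid-like and Mga in plasma-like nuclei were called under all 17 alternatives run for them. Mxi1 in monocyte progenitor-like nuclei turned from -0.90 to 0.99 with clusters, where a different cluster of 66 nuclei took that name. Mxd4 in erythroid-side nuclei stayed between -1.37 and -2.06 (log2) under 16 alternatives, and its call was lost under 3 of them.

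The number of members called in lymphoid progenitor-like nuclei was 0 and became 1 with 1 added to CPM. In myeloid progenitor-like nuclei it was 1 and became 0 under the stricter, looser and thinned gates, medians of sets and the 2-fold line. In monocyte progenitor-like nuclei it was 2 and became 5 with clusters (Max and Mxi1 higher, Mxd1, Mxd4 and Mga lower), 1 under the stricter and thinned gates and with at least 200 counts, and 0 under the 2-fold line. In megakaryocyte-side nuclei it was 0 and became 1 under thinned gates and without doublets, and ranged from 0 to 1 with each set left out, set 2 giving the 1. In erythroid-side nuclei it was 1 and became 3 with all UMIs, 0 under the stricter and looser gates, 2 under thinned gates and without doublets, 4 under medians of sets and with 1 added, and ranged from 2 to 3 with each set left out. Over the mature classes 15 pairs were called, 9 under the stricter gate, 6 under the 2-fold line and between 15 and 18 with each set left out. Thinned gates gave no such total, because a class had too few nuclei. In cycling nuclei 1 member was called, 2 with 1 added, Mxd3 being the other, and 0 under the 2-fold line. The causes were not tested. Without set 4, the calls of Mxd4 in monocyte progenitor-like, Max in late erythroid-like, Max in T and NK-like and Mnt in dendritic and macrophage-like nuclei were lost, and without set 2 or set 3 that of Mlxip in B lineage-like nuclei.

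Depth limits the mature classes most, where 5 to 15 UMIs carry some calls. Gates by marker RNA leave 49.7% of nuclei undescribed, late erythroid-like, neutrophil-like and plasma-like nuclei rest on 2 barcode sets, and in RNA of nuclei a level says nothing of protein.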
